A study of Danio rerio with 8 samples.

Results

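The alpha and beta subunit genes of the sodium-potassium pump (Na+/K+-ATPase) were compared between *tbx5a*+ and *tbx5a*- cardiomyocytes of the adult zebrafish ventricle. Rows were chosen by symbol from a set of 8 genes reported here, led by the alpha 3 gene *atp1a3b*, and matched 9 of the 31388 rows of the table. Of these rows 5 bore the symbol itself (*atp1a2a*, *atp1a3a*, *atp1a3b*, *atp1b3a* and *atp1b3b*) and 4 bore a human-style symbol that 2 rows share: ATP1B1 was taken for *atp1b1a* and *atp1b1b*, and ATP1B2 for *atp1b2a* perhaps with its copy *atp1b2b*. The sources used here do not say which row is which copy, so these rows are named by symbol and Ensembl identifier.

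The pump is an enzyme of the plasma membrane that uses ATP to export sodium and import potassium. A working pump joins an alpha chain, which binds the ions and splits ATP, with a beta chain, a glycoprotein that the alpha chain needs to fold and to reach the cell surface, and a small FXYD protein may bind both and modulate them. In cardiomyocytes the pump maintains the sodium and potassium gradients. The sodium gradient drives the sodium-calcium exchanger, and the alpha chain is the target of cardiac glycosides such as digoxin. In zebrafish the alpha and beta genes are present in several copies.

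The fish were double transgenic Tg(tbx5:GFP)/(myl7:nucDsRed) adults of 6 to 9 months, in which a *tbx5a* reporter drives GFP and the promoter of the cardiac myosin light chain gene *myl7* drives a red nuclear protein. Red cells with GFP were collected as *tbx5a*+ and red cells without GFP as *tbx5a*- cardiomyocytes, so both populations carry both transgenes, and membership rests on the reporter and not on the *tbx5a* protein. A pool of 5 hearts gave 1 library of each population, and the labels pair the libraries of the 4 pools by their number (2, 8, 9 or 10), by which libraries are named here.

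The 8 libraries held 7149180 to 9491789 estimated reads. *tbx5a* itself had normalized values of 3197 to 4919 in *tbx5a*+ and of 90.5 to 442 in *tbx5a*- libraries. *tbx5a*- libraries 9 and 2 stood apart, with 11329 and 12225 genes above 0 against 13301 to 14983 in the other 6. Values without them are given for some of the results. The summed values of 5 erythrocyte marker rows, 3 of them at 0 throughout, were 12.8 to 26.8 in *tbx5a*+ and 0 to 26.3 in *tbx5a*- libraries. Those of 8 leukocyte rows, 2 of them at 0 throughout, were 11.3 to 32.4 and 0 to 41.2. For 5 endothelial rows the sums were 49.7 to 143 and 45.0 to 193. For 9 fibroblast and epicardial rows, 3 of them at 0 throughout, they were 47.3 to 88.3 and 14.5 to 268. The cardiomyocyte markers, 12 rows of which 1 was at 0, summed to at least 934600 in every library. Among them the ventricular myosin gene *vmhc* was called lower in *tbx5a*+, at 3205 to 4924 against 9488 to 32219 (log2 fold change -2.29, SE 0.28, limma adjusted *p* = 3.2e-05). Without *tbx5a*- libraries 9 and 2 its log2 fold change was -1.59.

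*atp1a3b* (ENSDARG00000104139) encodes the alpha 3 chain, which in mammals is known above all from neurons. The summed values of 10 neuron and glia marker rows, 4 of them at 0 throughout, were 9.33 to 30.9 in *tbx5a*+ and 16.1 to 54.4 in *tbx5a*- libraries. The highest sum was that of *tbx5a*- library 9, where *plp1a* was at 53.2. Of the neuronal rows, ELAVL3, ELAVL4, SNAP25 and *syn1* were at 0 in all 4 *tbx5a*+ libraries. In *tbx5a*- libraries ELAVL3 reached 10.3, ELAVL4 1.1 and a SNAP25 row 16.45, while *syn1* was at 0. A STMN2 row was at 0 to 7.18 in *tbx5a*+ and 0 to 7.30 in *tbx5a*- libraries. The glial gene GFAP was at 0 to 28.7 in *tbx5a*+ and 0 to 1.19 in *tbx5a*- libraries, while *plp1a* was at 0 to 27.9 and 5.83 to 53.2. Their part in the difference was not tested. The normalized value of *atp1a3b* was 3593, 2094, 2631 and 3627 in *tbx5a*+ libraries 2, 8, 9 and 10, against 1376, 1518, 870.2 and 2273 in their *tbx5a*- partners. *tbx5a*+ was thus the higher library in 4 of 4 pairs, as it was for 9.54% of all genes tested, but the populations overlapped, since *tbx5a*+ library 8 lay below *tbx5a*- library 10. The means were 2986 ± 753 and 1509 ± 580 (SD, *n* = 4 libraries each), a ratio of 1.98. In this bulk RNA a lower share of expressing cells and less RNA per cell cannot be told apart.

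On the log2(value + 1) scale the difference of *atp1a3b* was 1.38 in pair 2, 0.46 in pair 8, 1.59 in pair 9 and 0.67 in pair 10, with a mean of 1.03 (SE 0.25 from limma). The larger differences were those of the pairs 2 and 9, whose *tbx5a*- libraries had the fewest genes above 0 and also the lowest *atp1a3b* values. The part of the number of detected genes in the difference was not tested. Without these 2 *tbx5a*- libraries the log2 fold change was 0.65 (SE 0.26), while the median over all genes tested fell from 0.20 to 0.036. Among the alternatives that kept all 8 libraries it was 0.91 to 1.06. *atp1a3b* was chosen on this contrast. A call needed a limma adjusted *p* no higher than 0.05, with a log2 fold change of 1 or more in either direction. In the fit with the pair as a block *atp1a3b* passed the call. Its log2 fold change of 1.03, just past the size that a call needs, was the same in both fits. Without the block *atp1a3b* was not called, since its limma adjusted *p* was above 0.05. These values are therefore a description of the gene and not a test of it.

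**Figure D1:**
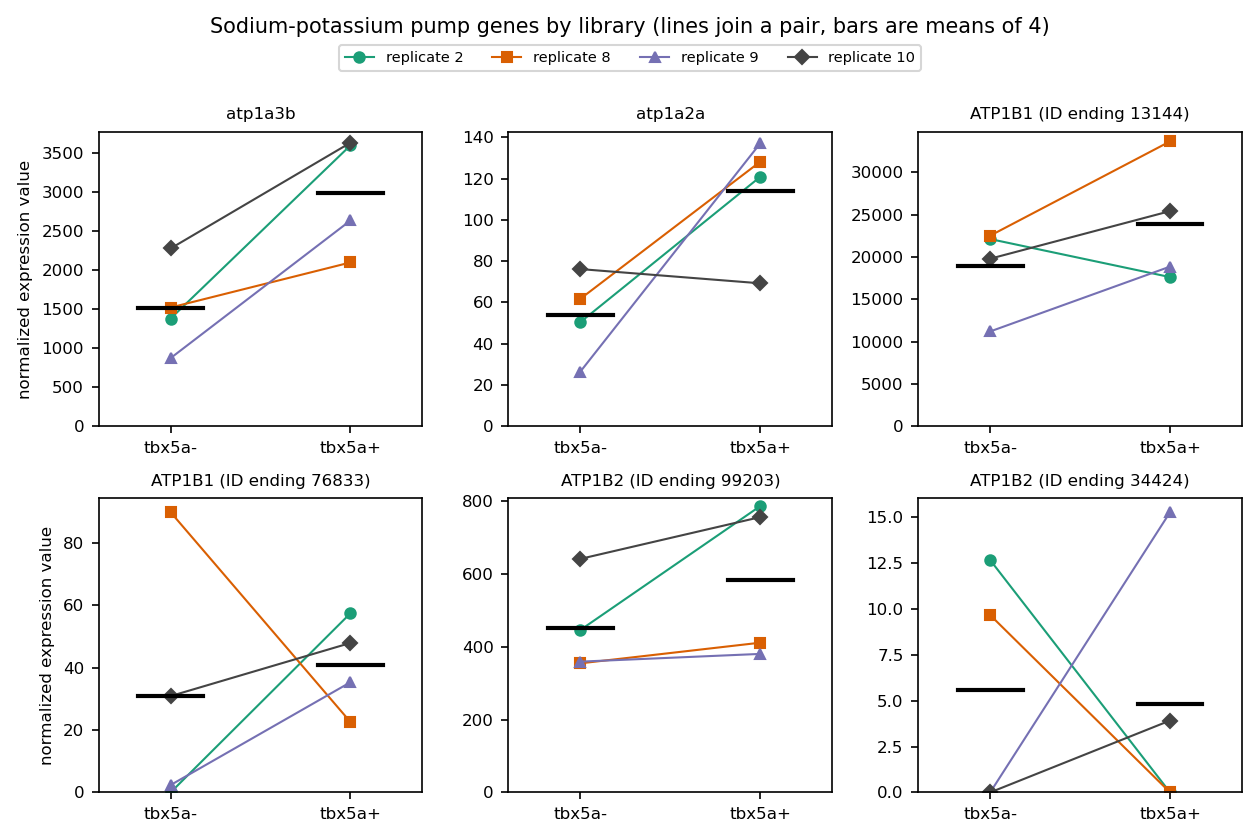
Normalized expression value (y axis, linear from 0) of 6 rows of pump subunit genes in *tbx5a*- and *tbx5a*+ libraries; each line joins the 2 libraries of a replicate and black bars are means of 4 libraries. *atp1a3b* rises along all 4 lines, and the lines of the ATP1B2 row ENSDARG00000034424, at values of 15.3 or less, cross.

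*atp1a2a* (ENSDARG00000010472) encodes the alpha 2 chain, which in mammals is an alpha chain of heart and skeletal muscle. Its value was 121, 128, 137 and 69.3 in *tbx5a*+ libraries 2, 8, 9 and 10 and 50.4, 61.75, 26.5 and 76.15 in their *tbx5a*- partners. *tbx5a*+ was higher in pairs 2, 8 and 9 and slightly lower in pair 10, whose *tbx5a*+ library overlapped the *tbx5a*- range. The log2 fold change of 1.12 (SE 0.53, 95% interval 0.019 to 2.22) was as large as that of *atp1a3b* but rested on fewer reads, about 466 against 217 over 4 libraries each, and missed the threshold (limma adjusted *p* = 0.70, or 0.54 under the pair block). It was 0.68 without *tbx5a*- libraries 2 and 9.

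*atp1a3a* (ENSDARG00000018259), the alpha 3 copy that pairs with *atp1a3b*, was listed at 0 in all 8 libraries, where 3 reads would give a value of 2.58 to 3.56. At this depth alpha 3 reads were thus assigned to *atp1a3b* alone. It was not tested, because a gene had to reach 1 CPM in at least 2 libraries.

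The main beta 1 row, ATP1B1 (ENSDARG00000013144), varied more among replicates than between the populations. Beta 1 is the beta chain most abundant in mammalian heart and kidney. Its value was 17616, 33657, 18856 and 25416 in *tbx5a*+ libraries 2, 8, 9 and 10 and 22113, 22514, 11191 and 19789.7 in their *tbx5a*- partners. It was higher in *tbx5a*+ in pairs 8, 9 and 10 and lower in pair 2, the pair that gave *atp1a3b* its second largest difference. The log2 fold change was 0.34 (SE 0.24, 95% interval -0.15 to 0.83, limma adjusted *p* = 0.76). With the block the interval was 0.014 to 0.67, and without *tbx5a*- libraries 2 and 9 the log2 fold change was 0.13.

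The second ATP1B1 row (ENSDARG00000076833) had 57.5, 22.6, 35.4 and 48.0 in *tbx5a*+ and 0, 89.9, 2.37 and 30.9 in *tbx5a*- libraries 2, 8, 9 and 10. The 2 lowest values were those of the *tbx5a*- libraries with the fewest genes above 0, and the highest of all 8 was also a *tbx5a*- value. Its log2 fold change of 1.99 (SE 1.23, 95% interval -0.55 to 4.53, limma adjusted *p* = 0.75) turned to -0.44 without those 2 libraries, and the ratio of the means was 1.33.

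Beta 2, the chain first described in mammalian brain as an adhesion molecule of glia, had 1 row above 0 in all 8 libraries. ATP1B2 (ENSDARG00000099203) had 787, 411, 380.5 and 756 in *tbx5a*+ and 446, 355, 359 and 642 in *tbx5a*- libraries 2, 8, 9 and 10. It was higher in *tbx5a*+ in 4 of 4 pairs, as were 9.54% of all genes tested. The difference was small in pairs 8, 9 and 10 (0.21, 0.083 and 0.24 on the log2 scale, against 0.82 in pair 2), and the populations overlapped. The log2 fold change was 0.34 (SE 0.30, 95% interval -0.27 to 0.95, limma adjusted *p* = 0.82). It was 0.21 without *tbx5a*- libraries 2 and 9. The other ATP1B2 row (ENSDARG00000034424) was at 0 in 4 of 8 libraries and at 3.92 to 15.3 in the rest, and its log2 fold change of -0.22 (SE 1.44, limma adjusted *p* = 0.99) has a 95% interval of -3.18 to 2.75.

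The beta 3 genes, whose products are the third type of beta chain of vertebrates, were barely detected. *atp1b3a* (ENSDARG00000015790) was listed at 1.91 in *tbx5a*+ library 9 and at 0 elsewhere. *atp1b3b* (ENSDARG00000042837) was listed at 24.05 in *tbx5a*- library 10, at 3.82 and 1.88 in *tbx5a*+ libraries 9 and 10, and at 0 in the other 5. Neither was tested.

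In all, 6 of the 9 rows were tested and 0 were called in the fit without the block, against 0.194% of the 13895 genes tested (0.00720% called as higher in *tbx5a*+ and 0.187% in *tbx5a*-). The 1 gene called there as higher in *tbx5a*+ was *tbx5a* itself, so nothing is read from the count of 0. With the pair as a block 1 of 6, *atp1a3b*, was called, against 0.417% of all genes (0.137% as higher in *tbx5a*+), and since it was chosen on this contrast nothing is read from that count. Of the other 5 rows 0 were called by limma, blocked or not, and 0 by limma-voom. An unadjusted limma *p* under 0.05 was found for 1 of them, *atp1a2a*, when unblocked. With the block it was found for 2, *atp1a2a* and the ATP1B1 row ENSDARG00000013144. As the share of all genes tested at such a *p* was not taken, nothing is read from these counts. The adjusted *p* of the 5 rows was 0.70 to 0.99 without the block and 0.52 to 0.98 with it (limma). The log2 fold change was above 0 in 4 of these 5 rows, against 61.3% of all genes tested, and its median was 0.34, against 0.20. Without *tbx5a*- libraries 2 and 9 it was above 0 in 3 of 5, against 52.2%, with a median of 0.13, against 0.036. In 0 of the 6 rows did the libraries of the populations lie apart without overlap, as they did with *tbx5a*+ higher in 2.32% and with *tbx5a*- higher in 1.65% of all genes.

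**Figure D2:**
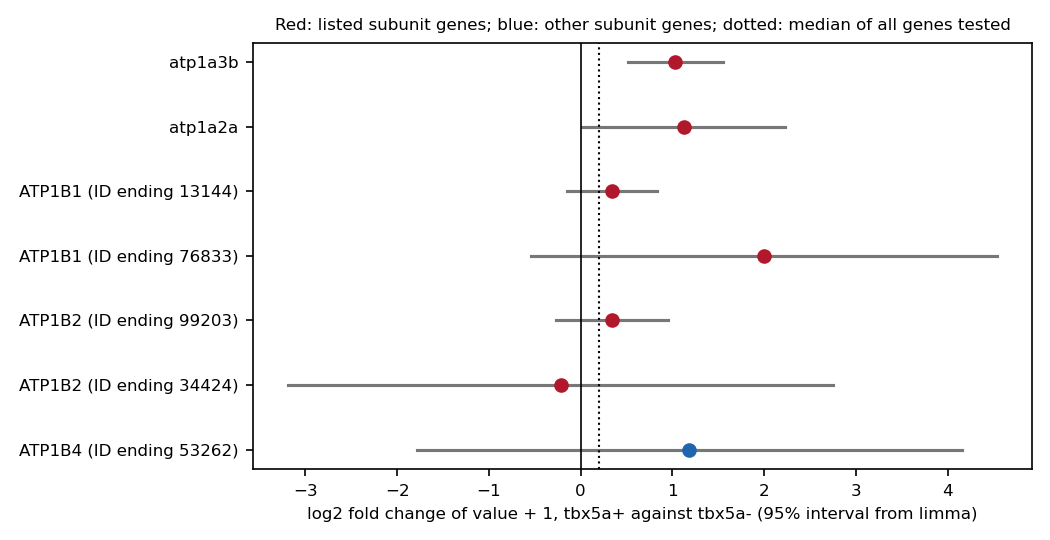
Log2 fold change of value + 1 between *tbx5a*+ and *tbx5a*- libraries (x axis, points) with its 95% interval from limma (bars) for the 6 tested rows of the subunit genes (red) and ATP1B4 (blue); the dotted line is the median of all genes tested, 0.20. The interval of *atp1a3b* runs from 0.51 to 1.55, that of the ATP1B1 row ENSDARG00000013144 from -0.15 to 0.83, and those of the low rows span several units.

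Within each pair *atp1a3b* was set against the other tested rows of the listed subunit genes that had higher values. The ATP1B1 row ENSDARG00000076833 and the ATP1B2 row ENSDARG00000034424 were left out for their low mean values. The log2 difference of *atp1a3b* exceeded that of the ATP1B2 row ENSDARG00000099203 in 4 of 4 pairs, by 0.57, 0.25, 1.51 and 0.44 in pairs 2, 8, 9 and 10 (mean 0.69, SD 0.56). Gene length cancels in such a difference of differences. It exceeded that of the ATP1B1 row ENSDARG00000013144 in 3 of 4, by 1.71, -0.12, 0.84 and 0.31 (mean 0.69, SD 0.79). Against *atp1a2a* it was larger in 2 of 4 pairs, with a mean of -0.092 and an SD of 0.71, so the alpha 2 and alpha 3 genes were not separated by their differences. Because *atp1a3b* was chosen for its difference, these values describe it and test nothing.

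**Figure D3:**
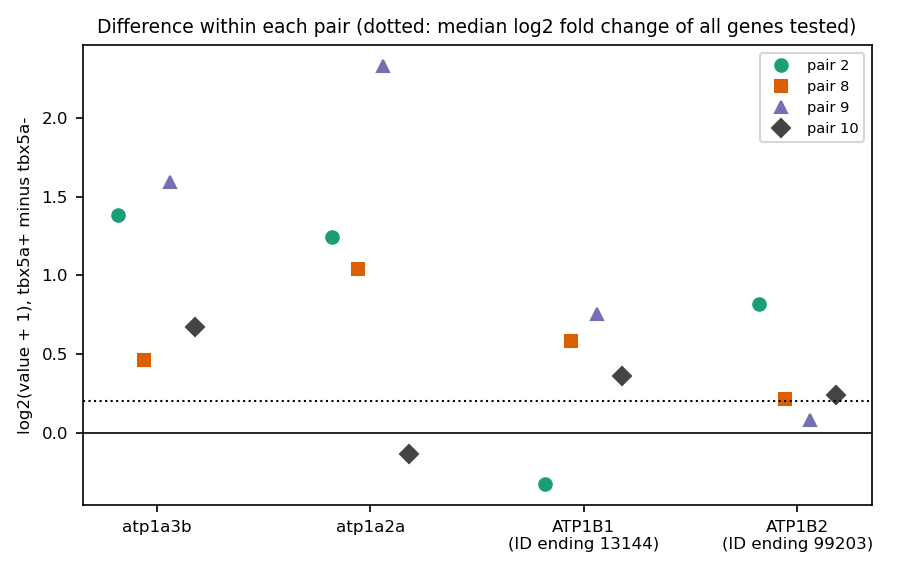
Difference in log2(value + 1) between the *tbx5a*+ and the *tbx5a*- library of each pair (y axis) for 4 rows of subunit genes; each symbol is 1 pair and the dotted line is the median log2 fold change of all genes tested. All 4 points of *atp1a3b* lie between 0.46 and 1.59 and those of *atp1a2a* between -0.135 and 2.33. Those of the ATP1B2 row lie between 0.083 and 0.82 and those of the ATP1B1 row between -0.33 and 0.75.

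A further beta chain gene by its symbol is ATP1B4 (ENSDARG00000053262). In placental mammals its product is a muscle protein that no longer serves the pump, and its role in zebrafish was not examined here. ATP1B4 had 11.3, 0, 0 and 23.5 in *tbx5a*+ and 0, 0, 0 and 10.3 in *tbx5a*- libraries 2, 8, 9 and 10. The populations overlapped, and it was not called by limma, blocked or not, or by limma-voom (log2 fold change 1.18, limma adjusted *p* = 0.88).

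The genes that work with the pump were taken from 6 lists. Of their 54 rows 19 were at 0 in every library and 29 were tested. Of these 0 were called by limma, against 0.194% of all genes tested without the block and 0.417% with it, and 0 by limma-voom. Nothing is read from that count. In limma an unadjusted *p* under 0.05 was found for 3 without the block (*atp2b4* and the ankyrin genes *ank2b* and *ank3a*) and for 5 with it. The share of all genes at such a *p* was not taken. The log2 fold change was above 0 in 18 of the 29 rows, against 61.3% of all genes tested, with a median of 0.17, against 0.20.

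Among 7 FXYD rows *fxyd3* alone was tested. It had 4118, 4977, 5103 and 5292 in *tbx5a*+ and 5324, 5031, 6069 and 3918 in *tbx5a*- libraries 2, 8, 9 and 10. The populations overlapped, and the log2 fold change was -0.051 (95% interval -0.44 to 0.34, limma adjusted *p* = 0.98). It was 0.13 (SE 0.21) without *tbx5a*- libraries 2 and 9.

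Of the sodium-calcium exchangers, which use the sodium gradient to remove calcium from the cell, 3 of 7 rows were tested. *slc8a1a*, named for its high values, which are not corrected for gene length here or in the lists that follow, had 25844, 15171, 16617 and 17298 in *tbx5a*+ and 16982, 11692, 12945 and 14234 in *tbx5a*- libraries 2, 8, 9 and 10. *slc8a1a* was higher in *tbx5a*+ in 4 of 4 pairs, as were 9.54% of all genes tested. Its log2 fold change of 0.41 (SE 0.20, 95% interval -0.010 to 0.82) missed the threshold (limma adjusted *p* = 0.72, or 0.31 under the pair block). The interval was 0.12 to 0.69 under the block, and the log2 fold change was 0.51 without *tbx5a*- libraries 2 and 9.

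Of the ankyrins and spectrins, which anchor the pump and the exchanger under the membrane, 10 rows were tested. In 9 the log2 fold change was above 0, against 61.3% of all genes tested, with a median of 0.27, against 0.20. Without *tbx5a*- libraries 2 and 9 it was below 0 for *ank2a* (-0.082) and the ANK1 row ENSDARG00000059093 (-0.11). It was above 0 in the other ankyrin and spectrin rows tested then. The spectrin gene SPTB, the highest of them, had 3440 to 4661 in *tbx5a*- and 4437 to 5396 in *tbx5a*+ libraries, a log2 fold change of 0.24 (95% interval -0.14 to 0.62, limma adjusted *p* = 0.78). Among ankyrin genes named after their values were seen, *ank2b* had 2726.8 to 3990.6 in *tbx5a*+ and 2215 to 2506 in *tbx5a*- libraries. Its populations did not overlap, as in 2.32% of all genes tested with *tbx5a*+ higher (log2 fold change 0.41, SE 0.19, limma adjusted *p* = 0.70). *ank3a* had 1569 to 4358 and 1184 to 2379 and overlapped. It was higher in *tbx5a*+ in 4 of 4 pairs, as were 9.54% of all genes tested (log2 fold change 0.59, SE 0.27, limma adjusted *p* = 0.70, or 0.16 under the pair block). Of 6 rows of plasma membrane calcium pumps 3 were tested. The highest of them, *atp2b4*, had 330.1, 76.6, 129 and 127 in *tbx5a*- and 42.1, 53.0, 46.8 and 98.8 in *tbx5a*+ libraries 2, 8, 9 and 10. It was higher in *tbx5a*- in 4 of 4 pairs, as were 5.38% of all genes tested, and overlapped between the populations, with a log2 fold change of -1.32 (SE 0.52, limma adjusted *p* = 0.62, or 0.40 under the pair block). Without *tbx5a*- libraries 2 and 9 it was -0.79 (SE 0.55).

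The sodium-hydrogen exchangers, which let sodium in to export acid, had 4 of 8 rows tested. Of these 1 had a log2 fold change above 0, against 61.3% of all genes tested. By limma 0 were called, against 0.194% of all genes tested without the block and 0.417% with it. Of 15 rows of sodium-bicarbonate and cation-chloride cotransporters 8 were tested. The potassium-chloride cotransporter gene SLC12A7, the highest by its mean over all 8 libraries, had 576 to 852 in *tbx5a*- and 624 to 891 in *tbx5a*+ libraries (log2 fold change 0.15, 95% interval -0.35 to 0.65, limma adjusted *p* = 0.92).

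Over the 8 libraries, the genes whose log2 values followed *atp1a3b* most closely among 4370 tested genes with a mean value of at least 100 were CABZ01087111.1 (Pearson's *r* = 0.979), *ndufa10* (0.978), which encodes an accessory subunit of respiratory complex I, *acad9* (0.973), which encodes an acyl-CoA dehydrogenase that also helps to assemble complex I, *apmap* (0.969), which encodes a membrane protein of adipocytes in mammals, and *xbp1* (0.968), which encodes a transcription factor of the unfolded protein response. These *r* values are the highest of 4370, describe the libraries over both populations together and carry no test. The libraries share their pairs and differ in depth. Of the pump genes, the ATP1B2 row ENSDARG00000099203 had an *r* of 0.756 and stood at rank 388, and the ATP1B1 row ENSDARG00000013144 had 0.443 at rank 1280. Over the 6 libraries without *tbx5a*- libraries 2 and 9, *r* was 0.912 to 0.969 for the 5 genes named, 0.80 for the ATP1B2 row and -0.28 for the ATP1B1 row. The 5 genes were picked for their *r* over libraries that include these 6, so their values here are no check. The pump rows were not picked for their *r*.

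**Figure D4:**
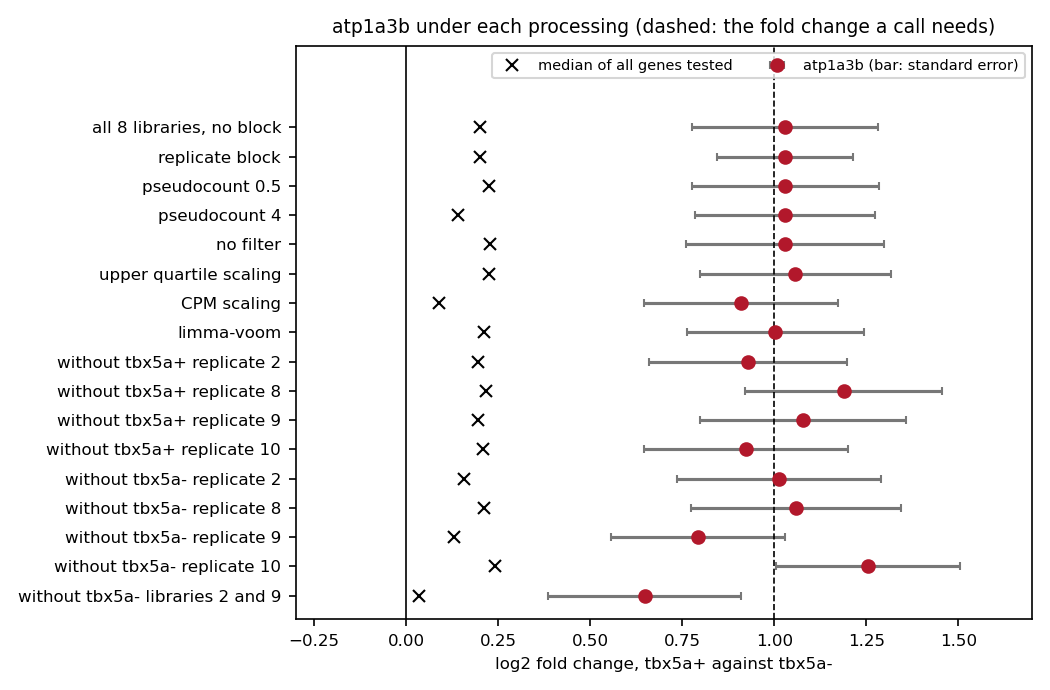
Log2 fold change of *atp1a3b* (red, with its SE) and median log2 fold change of all genes tested (crosses) under each processing (rows); the dashed line marks the log2 fold change of 1 that a call needs. The values run from 0.65, without *tbx5a*- libraries 2 and 9, to 1.25, without *tbx5a*- library 10. The crosses lie at 0.036 and 0.24 in these 2 rows and between these values in the others.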

How the data were processed

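RNA-Seq was measured in 8 libraries made from 0.6 ng of total RNA and read as 60-base single reads. The authors trimmed reads with cutadapt and quantified genes with RSEM. Versions differ between the methods (cutadapt 1.9.1, RSEM v1.2.25, Ensembl release 82) and the processing notes of the submitters (RSEM 1.2.3, CASAVA 1.8.2, Zv9), and the sources used here do not say which applies, so coordinates were left out. The authors deposited a normalized signal for each gene in each library, not divided by gene length, so levels are not compared between genes. Estimated reads are the values divided by the value of 1 read (0.859 to 1.19), the spacing of the low values in each library. Of the values under 60, 71.1% to 77.7% lay within 0.0051 of a whole multiple, so whole reads were not recovered and a count test was not used.

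The test was run on the 13895 genes that reached 1 CPM in 2 or more libraries. log2(value + 1), which draws fold changes of low genes toward 0, was fitted with limma 3.58.1 (R 4.3.3) with a variance trend. Adjusted *p* is Benjamini–Hochberg over all genes tested. A call required an adjusted *p* no higher than 0.05 together with a log2 fold change of 1 or more in either direction. The replicate numbers pair the libraries, as the labels state (each library has a pair number and the design is given as paired). Their deviations from the group means had correlations of 0.043 to 0.089 within pairs. Alternatives were the pair as a block, other pseudocounts, scalings and filters, limma-voom on estimated reads, and leaving out libraries. SE and intervals are from the fit without the block unless the block is named. Symbols came from a table of Ensembl gene symbols (25925 of 31388 rows) and the study's gene list. The members and lists were chosen with earlier results of these data known. Some pump and exchanger genes are not reported here. Genes named are all other members, the highest row of each partner list but the sodium-hydrogen exchangers, any called row of a list, and the 5 genes most like *atp1a3b*. Some ankyrin rows were also named after their values were seen. Other calculations used Python 3.11.15, numpy 2.4.6, pandas 2.3.3 and matplotlib 3.10.9.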

Additional observations from a re-analysis of the deposited data

Results flagged for a closer look

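In 14 groups of 4 libraries of the tested subunit rows and ATP1B4, the gap between an extreme library and its neighbour was compared with the range of the group. Dixon's test was used, which marks about 5% of groups of normally distributed values by chance, a rate that does not hold for rows with many values at 0. In all 1 group passed. The *tbx5a*- library of replicate 10 for ATP1B4, at 10.3, stood above 3 libraries at 0, a ratio of gap to range of 1. With 3 libraries at 0, any value above 0 gives this ratio, so the flag marks no outlier.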

How the results depend on the processing

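Under 16 alternatives *atp1a2a* (0.68 to 1.34), ATP1B1 (ENSDARG00000013144, 0.11 to 0.47), ATP1B2 (ENSDARG00000099203, 0.17 to 0.52) and *atp1a3b* (0.65 to 1.25) kept a log2 fold change above 0. With the replicate block 58 genes were called in place of 27, and 1 pump gene, *atp1a3b*, in place of 0. Without the *tbx5a*- libraries of replicates 2 and 9, 6 genes and 0 pump genes were called. Leaving out 1 library at a time gave 19 to 31 genes and 0 to 1 pump genes, the 1 being *atp1a3b* without the *tbx5a*- library of replicate 10. The block changed no other call of a pump gene. ATP1B2 (ENSDARG00000034424) changed sign when 1 library was left out (-1.03 to 0.44), and ATP1B1 (ENSDARG00000076833, 0.89 to 3.06 when 1 library was left out) turned to -0.44 without the *tbx5a*- libraries of replicates 2 and 9, where its low values lie. The second ATP1B1 row and the second ATP1B2 row, with few reads, had intervals that span several log2 units. The cause of these shifts was not tested.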
